A study of Mus musculus with 92 samples.

Results

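Freeze injury was given to the left tibialis anterior (TA), which lifts the foot, and 195 genes were selected because they stood lower in the injured than in the contralateral muscle at 48 h. A gene was selected on its 48 h levels alone, by 3 conditions. Its mean over the 4 control muscles was at least 1 FPKM (fragments mapped to a gene, scaled to its length and to the fragments mapped in the library, the deposited unit), the mean of log2(FPKM + 0.1) over the 3 injured muscles lay at least 1 below that of the controls, and the highest injured value lay below the lowest control value. Of the 23811 rows for genes, 9280 had a control mean of at least 1 FPKM, and 195 of them (2.1%, a share that the selection itself sets) met all 3 conditions. These carry 194 symbols, since 2310081J21Rik is listed at 2 loci of chromosome 13. Because the 48 h values chose the genes, those values are given as a description, and tests were made only at the 8 other time points.

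The mice were male C57BL/6J adults. The left TA was exposed and touched for 10 s with a steel probe cooled on dry ice, and the uninjured right TA of the same mouse was the control, so that the controls come from mice that also had the anesthesia, the injury of the other leg and the opioid analgesic. RNA was taken from a portion of each muscle. There were 5 muscles of each kind at 10 h, 24 h, 72 h, 14 d and 28 d. The 48 h and the 7 d comparisons rest on 3 injured and 4 control muscles, that of 21 d on 4 and 3, and that of 3 h on 2 and 3.

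The TA is built mainly from fast fibers, which draw on glycogen and phosphocreatine, release calcium from a dense sarcoplasmic reticulum and contract through fast forms of the sarcomere proteins. Fibers killed by freezing are removed by neutrophils and macrophages, and satellite cells, the stem cells of muscle, build new fibers that pass through an embryonic program before they mature. Channels of the fiber membrane and enzymes of amino acid and polyamine metabolism serve the same mature fibers.

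The labelled tissue matched its markers. In the 48 h controls 15 genes of the fast sarcomere summed to between 88060 and 95502 FPKM and 14 genes of the slow sarcomere to between 543 and 1148 FPKM. In the 48 h injured muscles the fast sum was 42925 to 68050 FPKM, and a list of macrophage genes, which summed to 17.0 to 49.7 FPKM in the controls, stood at 1090 to 3723 FPKM. In bulk tissue fewer fibers and less RNA per fiber cannot be told apart. The deposited values hold no read numbers, so the depth of single libraries is unknown. A few libraries stood apart from the others. The control of animal 02 at 72 h had 5611 genes above 1 FPKM where the other controls had 8550 or more, and the selected genes lay by a median of 1.43 on the log2 scale below the mean of the controls of that time point. The injured muscle of animal 02 at 7 d had a macrophage sum of 9068 FPKM where the other injured muscles of 7 d had 412 and 514 FPKM. The control of the same mouse had an FPKM sum of 755535 where other controls had 314084 to 523947, a respiratory chain sum of 103139 FPKM where the other 7 d controls had 23618 to 25687, and a creatine and adenylate sum of 3038 FPKM where they had 12750 to 17126. Results that rest on these muscles are given with and without them. The injured library of animal 05 at 7 d was incomplete, with 262 genes above 1 FPKM, and entered no value below.

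At 48 h the selected genes lay in the injured muscles by a median of 1.22 on the log2 scale below the controls, where the median difference of all 9280 rows was 0.45 above 0. The differences ran from -2.83 to -1.0004, and 152 of the 195 lay between 1 and 1.5 in size. The selected genes were abundant ones. Their median control level was 25.3 FPKM against 6.02 FPKM for all 9280 rows, and they held 9 of the 45 rows above 1000 FPKM and 40 of the 473 rows above 100 FPKM, though 36 of them were under 5 FPKM. Summed over the 195 genes the level was 32725 to 36272 FPKM in the 4 controls and 10467 to 19425 FPKM in the 3 injured muscles. As a share of all FPKM of a library this was 8.66% to 8.84% in the controls and 2.53% to 4.98% in the injured muscles, with the lowest share in animal 04.

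The largest difference was that of Prima1 (chromosome 12, 104435117 to 104480356 of the mm9 build, minus strand), which encodes the membrane anchor of acetylcholinesterase. It stood at 1.53, 1.30, 2.40 and 2.502 FPKM in the controls and at 0.382, 0.0564 and 0.179 FPKM in the injured muscles of animals 01, 04 and 05. Klhl33 followed, at 51.2, 42.7, 37.2 and 42.9 FPKM in the controls and 13.3, 2.62 and 8.71 FPKM in the injured muscles. Both genes were lowest in the injured muscle of animal 04, which also had the highest macrophage sum of the 3. Inmt, the indolethylamine N-methyltransferase, was the next, with a mean of 5.74 ± 2.85 FPKM (SD, n = 4) in controls and 0.865 ± 0.458 FPKM (SD, n = 3) in injured muscles. Kcna7, a voltage-gated potassium channel, stood at 46.6 to 53.1 FPKM in controls and 9.85 to 19.2 FPKM in injured muscles, a difference of -1.85.

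Among the most abundant genes the differences were smaller. Pvalb, the calcium buffer parvalbumin of fast fibers, was the most abundant, at 9972, 9202, 7984 and 8261 FPKM in controls and 4850, 2450 and 3898 FPKM in injured muscles. Eno3, the muscle enolase of glycolysis, stood at 3599, 3381, 3156 and 3225 FPKM in controls and 2192, 1131 and 1582 FPKM in injured muscles. Again the muscle of animal 04 was lowest for both. Tcap, the titin cap of the Z-disc, Actn3, the α-actinin of fast fibers, Myoz1, a calsarcin that binds it, Pygm, the glycogen phosphorylase of muscle, Pfkm, its phosphofructokinase, Ckmt2, the mitochondrial creatine kinase of the sarcomere, and Casq1, the calcium store protein calsequestrin, completed the 9 above 1000 FPKM, with differences between -1.27 and -1.02. Mylk2, the myosin light chain kinase of skeletal muscle, differed more, with 397, 347, 389 and 374 FPKM in controls and 163, 75.5 and 107 FPKM in injured muscles.

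By role, 59 of the 195 genes are in at least 1 of 25 gene lists (Actn3 in 2, the fast sarcomere and the other genes of fiber nuclei, and counted in both), and all of these are lists of muscle fibers or their pathways. Glycolysis and glycogen gave 11 of its 29 genes with a control mean of at least 1 FPKM: Eno3, Pfkm and Pygm, the 3 phosphorylase kinase subunits Phka1, Phkb and Phkg1, the glucose transporter Slc2a4, Gpd1, Pfkfb1, Pfkfb3 and Ppp1r1a. The membrane channels and their subunits gave 6 of 20 (among them Aqp4, Kcna7 and Scn4b), excitation and calcium 4 of 21 (Casq1, Jph2, Pvalb, Trdn), the sarcomere scaffold 5 of 33 (Ky, Myoz3, Synm, Synpo2, Tcap), and the fast sarcomere 3 of 15 (Actn3, Mylk2, Myoz1). Creatine and adenylate metabolism gave 3 of 8, amino acid and polyamine metabolism 5 of 22, growth, insulin and atrophy 8 of 34, and other genes of fiber nuclei 11 of 45. Of 48 genes of the respiratory chain none was selected, although 46 of them were below 0 with a median of -0.55, and of 13 genes of the slow sarcomere none was selected, with a median of 0.06. None came from the lists of other cell types, of which few genes could be selected for white cells. A control mean of at least 1 FPKM was reached by 6 genes of macrophages, 2 of neutrophils, 0 of T and NK cells, 10 of fibroblasts, 23 of endothelium, 11 of adipocytes, 21 of tendon and 14 of nerve. The lists were drawn up with earlier results of these data known, so these counts describe the genes and test nothing.

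The limits of the selection cut through similar genes. Slc7a2, a transporter of basic amino acids, Tob1 and Lrrc14b lay just inside the 2-fold limit, Slc7a2 at -1.0004. Just outside lay Slc25a4, the ATP and ADP carrier of the inner mitochondrial membrane, at -0.999, then Cib2 and Selenbp1. Ckmt2 was the gene nearest to overlap, its lowest control at 916.6 FPKM and its highest injured muscle at 915.9 FPKM, while Odf3l2, Bdh1 and Mettl11b met the limits of level and fold and overlapped most narrowly. In all, 37 rows were left out by overlap alone, 1015 by the fold alone and 22 by the control level alone. Without the injured muscle of animal 04 112 rows met the 3 conditions (109 of the 195 among them), and 1211 did once all libraries had been brought to a common distribution by quantile normalization (191 of the 195 among them). Prss55, Casr and Tex38 were the members of lowest control level, near 1.13 FPKM.

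The 48 h controls themselves stood high for these genes. For 78 of the 195 the control mean of 48 h was the highest of the 9 control means, for 4 it was the lowest, and for 164 it lay above the mean of the other 8. The median log2 ratio of the 48 h control mean to that mean was 0.30, against 0.16 for the 9280 rows. With the controls of the other 8 time points as reference, all 195 genes were below in the 48 h injured muscles. The median was 0.92 on the log2 scale, and 79 genes were below by at least 1. The selection favours genes with high 48 h controls and low 48 h injured muscles, so these figures describe the genes and test nothing. Levels in the uninjured leg also moved over time, since the highest control mean was over 2 times the lowest for 80 genes. The plot of medians by muscle shows where each muscle lies on the common scale of these genes.

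**Figure D1:**
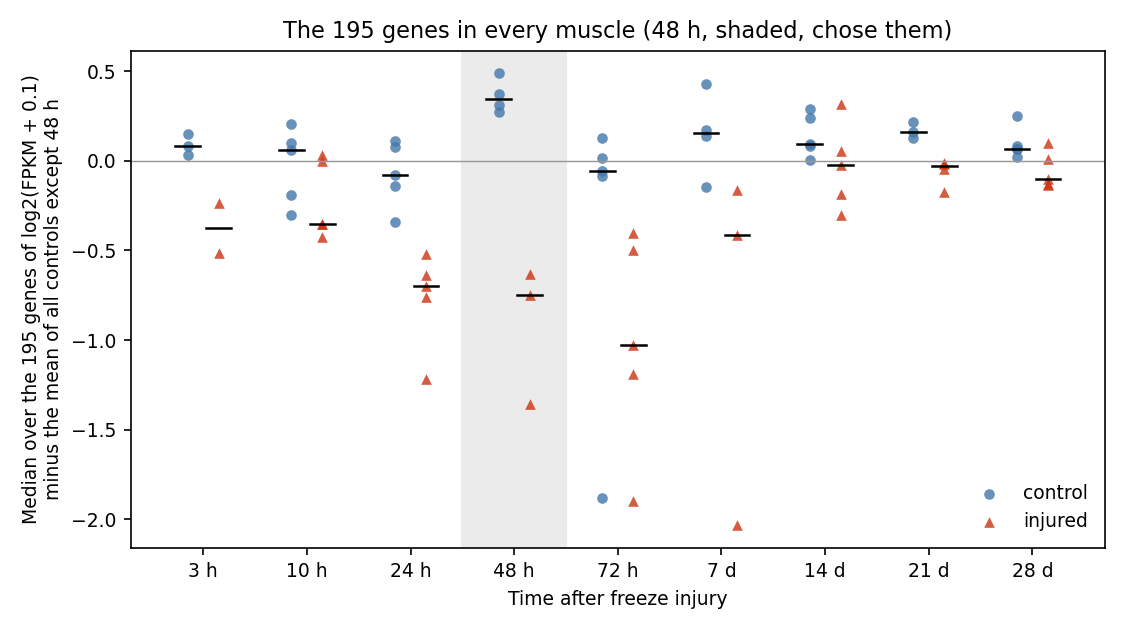
Median over the 195 genes of log2(FPKM + 0.1) in each muscle, relative to the mean of all controls except those of 48 h (vertical axis, log2 units), by time after injury (horizontal axis, evenly spaced and not to scale), with controls as circles, injured muscles as triangles and bars at the group medians. The 48 h muscles, shaded, chose the genes. The control of animal 02 at 72 h and the injured muscle of animal 02 at 7 d lie far below the other muscles of their groups.

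Promoter windows were searched for 7 short motifs. RefSeq gave a window of 300 bases, from 250 before to 50 after a start, for 145 of the 194 symbols, 198 windows in all on the GRCm38.p6 build, since genes can have several starts. The E-box CAGCTG, read the same on both strands and known as a site of the MyoD family of muscle regulators, was in 42 of the 198 windows (21.2%) and in 16.3% of the 32851 windows of all genes. The E-box CACGTG was in 8.08% against 7.15%, the TATA box TATAAA on either strand in 8.08% against 13.6%, and CCAAT on either strand in 35.9% against 37.4%. A MEF2 site spelled CTAAAAATA was in 3 windows (1.52% against 0.52%), those of Fgf6, Gm15179 and Capn3, while TTATGTAA and TCAAGGTCA were in none (0.94% and 0.42% of all windows). None of these motifs overlaps another in its letters, and a match is a string of letters and not a shown site. These shares were not tested, and most lie near those of all windows. At least 1 CAGCTG was found for 38 of the 145 genes. The windows of 4 of these 38, picked because they hold it and because the time courses below return to them, are printed 5′ to 3′ on the strand of the gene with CAGCTG in capitals. Prima1 (chr12:103242097-103242396, minus strand) has it at -182 from the start, Casq1 (chr1:172219846-172220145, minus strand) at -195, Pygm (chr19:6384158-6384457, plus strand) at -168 and at -8, and Ckmt2 (chr13:91876836-91877135, minus strand) at -107.
Prima1: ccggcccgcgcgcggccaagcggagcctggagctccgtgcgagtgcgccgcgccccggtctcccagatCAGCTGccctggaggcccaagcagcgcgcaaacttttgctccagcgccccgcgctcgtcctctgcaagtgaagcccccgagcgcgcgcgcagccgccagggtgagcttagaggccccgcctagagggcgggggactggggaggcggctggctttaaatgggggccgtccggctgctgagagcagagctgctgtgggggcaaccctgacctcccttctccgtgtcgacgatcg
Casq1: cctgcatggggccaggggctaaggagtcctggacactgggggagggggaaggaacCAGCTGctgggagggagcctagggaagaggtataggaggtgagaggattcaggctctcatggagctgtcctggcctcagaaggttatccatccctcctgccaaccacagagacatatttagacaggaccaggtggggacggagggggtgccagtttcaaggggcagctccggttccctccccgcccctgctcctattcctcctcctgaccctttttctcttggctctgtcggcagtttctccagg
Pygm: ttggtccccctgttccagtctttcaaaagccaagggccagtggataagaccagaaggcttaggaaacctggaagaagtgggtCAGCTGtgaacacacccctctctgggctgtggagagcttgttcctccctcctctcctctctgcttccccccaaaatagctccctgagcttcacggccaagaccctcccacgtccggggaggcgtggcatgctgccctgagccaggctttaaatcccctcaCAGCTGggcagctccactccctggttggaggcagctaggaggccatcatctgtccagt
Ckmt2: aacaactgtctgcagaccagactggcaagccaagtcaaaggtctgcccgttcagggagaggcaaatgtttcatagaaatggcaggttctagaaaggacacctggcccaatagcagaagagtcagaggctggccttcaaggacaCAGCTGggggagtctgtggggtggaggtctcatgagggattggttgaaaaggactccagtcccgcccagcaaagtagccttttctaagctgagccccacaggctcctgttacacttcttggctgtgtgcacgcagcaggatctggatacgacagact

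The selected genes lay on 20 chromosomes, with at most 18 on any 1 of them, and 5 pairs of neighbours were under 50 kb apart. On chromosome 7 Kcna7 and Ntf5, a neurotrophin, are 2312 bases apart on the same strand. On chromosome 2 B230312C02Rik (180105562 to 180120590) and Gm6307 (180120308 to 180136507) overlap at their ends, and the rows of the microRNA precursors Mir1a-1 and Mir133a-2 lie within Gm6307. Gm6307, which RefSeq names Mir1a-1hg, stood at 8.95, 10.6, 6.92 and 7.03 FPKM in the 48 h controls and at 2.36, 1.38 and 2.57 FPKM in the injured muscles. In all, 24 of the genes overlap another row of the table and 6 have at least 50% of their span under one. How the authors divided reads between such rows is not stated, so their levels are uncertain. The row named Amd2 (chromosome 10, 40007270 to 40021992) covers the locus that GENCODE names Amd1, an S-adenosylmethionine decarboxylase of polyamine synthesis, and a further row named Amd1 covers the same bases. Amd2 is printed below as deposited, and the sum of both rows is given beside it.

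The difference between injured and control muscle at the other time points was tested with limma on log2(FPKM + 0.1), in 1 fit of 69 libraries in 16 groups that left the 48 h muscles out. A gene was called lower or higher at an adjusted p under 0.05 over the 12009 genes tested and at least a 2-fold difference. Of the selected genes 194 could be tested, all but Pitpnm3. The fold of a gene near 0 FPKM is understated on this scale. The 12009 genes reached a mean of 1 FPKM in any of the 16 groups, injured ones included, while the selected genes reached it in controls of 48 h. The shares and medians of all genes below thus include genes near 0 FPKM in control muscle, which have little room to be called lower. The mice of the other time points did not choose the genes, so these comparisons show how far the 48 h difference was present in muscles taken before and after it.

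Selected genes were called lower at times from 10 h to 14 d, most of them at 24 h, 72 h and 7 d. At 3 h none of the 194 was called in limma, where 0.0333% of all genes were called lower and 16 of the selected genes had an unadjusted p under 0.05. At 10 h 7 were called lower (3.61%, against 0.408% of all genes) and 1 higher (against 11.7% of all genes). At 24 h 35 were called lower (18.04%, against 0.65%), at 72 h 39 (20.1%, against 0.6%) and at 7 d 73 (37.6%, against 1.9%), and none was called higher. At 14 d 3 were called lower (1.55%, against 0.0333%), and at 21 and 28 d none, where 0% and 0.025% of all genes were called lower and 15 selected genes at each had an unadjusted p under 0.05. Single muscles moved these counts. Without the control muscle of animal 02 the count at 72 h was 94, with 34 of the 39 among them, and without the injured muscle of animal 02 the count at 7 d was 6, all of them among the 73. Without the injured muscle of animal 05 the count at 24 h was 20, with 19 shared.

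**Figure D2:**
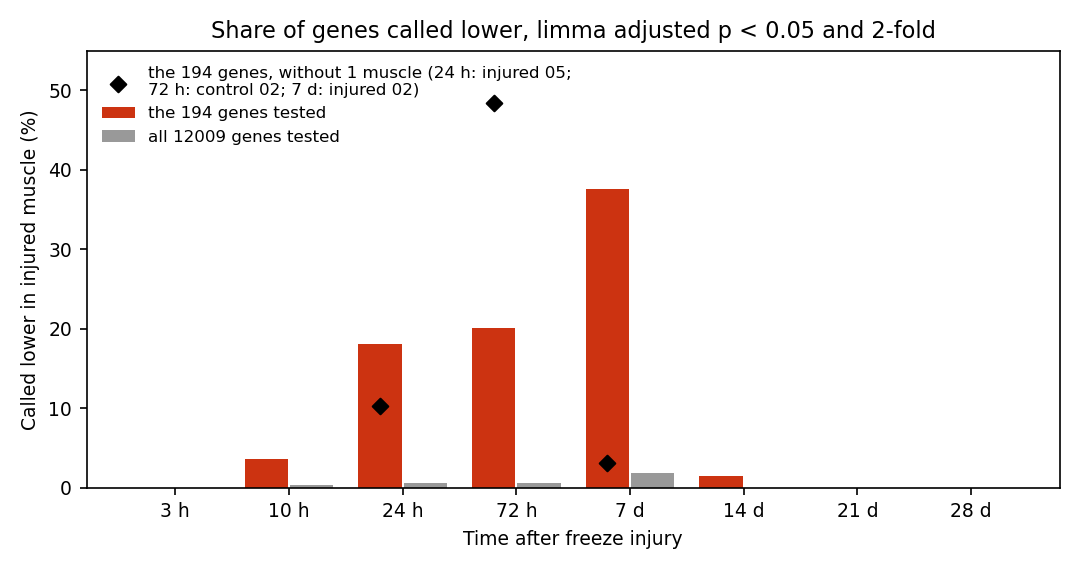
Share of genes called lower in injured muscle (vertical axis, percent, limma adjusted p under 0.05 and at least 2-fold) by time after injury (horizontal axis, evenly spaced), for the 194 selected genes that were tested in red and for all 12009 genes in gray. The diamonds give the share of the 194 genes after 1 muscle was left out, which raised it at 72 h and lowered it at 24 h and 7 d.

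The 194 genes had a median log2 difference of -0.46 at 3 h, where the median of all 12009 genes was -0.28. At the later times the pairs of medians were -0.18 and 0.20 (10 h), -0.67 and 0.29 (24 h), -0.68 and 1.01 (72 h), -0.95 and 0.31 (7 d), -0.17 and 0.17 (14 d), -0.23 and 0.04 (21 d) and -0.15 and -0.02 (28 d), so at 72 h the median of all genes lay above 0 and that of the selected genes below it, although 12.7% of all genes were below 0. With the upper quartile of each library set equal, the medians at 24 h, 72 h and 7 d were -0.91, -1.58 and -1.20 for the selected genes and 0.06, 0.16 and 0.07 for all genes, and the counts called lower were 72, 165 and 116. At 24 h 193 of the 194 genes were below 0, at 7 d 188 and at 72 h 181. No selected gene was called lower at more than 5 of the 8 times. Of the 194, 92 were called lower at none, 44 at 7 d alone, 13 at 72 h alone, 9 at 24 h alone and 9 at 24 h, 72 h and 7 d. These patterns are those of the fit of 69 libraries and rest in large part on single muscles. Without the injured muscle of animal 02 only 6 genes were called at 7 d. Without the control of animal 02 94 were called at 72 h, of which 34 were among the 39.

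At 3 h the selected genes stood lower in both injured muscles, with 127 of 194 below all 3 controls, but 50.8% of all genes did so too. At 10 h few of the genes differed. Ky (chromosome 9, 102408467 to 102448569), a protease needed to maintain muscle fibers, stood at 18.3, 16.6, 19.0, 35.8 and 32.8 FPKM in controls and 4.41, 15.8, 3.95, 5.33 and 11.7 FPKM in injured muscles. Every injured muscle lay below every control, and Ky fell by 1.71 on the log2 scale (SE 0.40, adjusted p = 0.000908 from limma). Prima1 stood at 2.98, 3.25, 3.94, 3.35 and 3.97 FPKM in controls and 1.15, 2.67, 1.17, 0.923 and 1.49 FPKM in injured muscles, again without overlap (log2 difference -1.27, SE 0.35, adjusted p = 0.00599 from limma). Its control level at 10 h was the highest of all 9 control means, and against the controls of all times together its difference at 10 h was 0.19. With a pseudocount of 1 it was -0.89 and under the 2-fold limit. The other genes called lower at 10 h were Inmt (-2.08), whose call was lost without any 1 of 5 muscles, Cth (-1.68), which encodes cystathionine γ-lyase, 6430571L13Rik, the carboxylesterase Ces1d (-1.27) and Lrrc38 (-1.24). Htra4, a serine protease, was the 1 gene higher, at 0.548 to 2.52 FPKM in controls and 0.749 to 6.17 FPKM in injured muscles (log2 difference 1.66, SE 0.60, adjusted p = 0.0389 from limma). Its groups overlapped through animal 04, whose injured muscle stood at 0.749 FPKM, and the call was lost without any 1 of 8 of the 10 muscles, at 1.44 to 1.74.

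At 24 h, before the time at which they were chosen, the genes called lower include 1 of the 6 selected membrane channel genes (Aqp4), the glucose transporter of muscle and 2 enzymes of polyamine metabolism (Amd2 and Smox). Lrrc38 (chromosome 4, 142939652 to 142960931), an auxiliary subunit of calcium-activated potassium channels, stood at 8.34, 8.35, 4.205, 6.61 and 9.76 FPKM in controls and 1.38, 1.94, 2.85, 2.53 and 1.96 FPKM in injured muscles. Its injured muscles lay below all controls (log2 difference -1.74, SE 0.36, adjusted p = 8.61e-05 from limma). The values of animal 03 are means of libraries A and B, which were far apart, for Lrrc38 at 7.95 and 0.459 FPKM in the control and 5.19 and 0.518 FPKM in the injured leg, so library B of the control lay below all injured muscles. Over the 195 genes A and B were at least 2-fold apart for 79 in the control and 61 in the injured leg. With A or B alone the number called lower at 24 h was 32 or 31, and Lrrc38 was at -1.76 or -1.61 and called with both. Aqp4, the water channel of fast fibers, stood at 6.03 to 22.8 FPKM in controls and 1.30 to 5.14 FPKM in injured muscles (-1.74, SE 0.46, adjusted p = 0.0021). Slc2a4 (chromosome 11, 69755787 to 69761692), the insulin-regulated glucose transporter, stood at 126, 132, 134, 117 and 158 FPKM in controls and 74.7, 50.5, 90.6, 83.5 and 35.3 FPKM in injured muscles. It fell without overlap of the groups (-1.07, SE 0.29, adjusted p = 0.00298), with its lowest value in animal 05, and was not called without that muscle (-0.86), without the injured muscle of animal 02 (-0.99) or with library A alone for animal 03 (-0.96). Klf15, a transcription factor of fuel metabolism (-1.11), the methyltransferase Mettl21c (-1.37) and the ubiquitin ligase adaptors Asb10 (-1.15) and Asb18 (-1.07) fell as well, Klf15 and Asb18 not without the injured muscle of animal 05. In all, 66 of the 194 genes had every injured muscle below every control, which 2.97% of all genes did, and 25 of these were called. The injured muscle of animal 05 had the lowest median of these genes, -1.09 against the controls of 24 h where the others had -0.41 to -0.69, and the highest macrophage sum, 2038 FPKM against 360 to 1032 FPKM. The part of those cells in the result was not tested.

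At 72 h the largest fall was in the row named Amd2, at 239, 68.0, 275, 202 and 316 FPKM in controls and 37.2, 43.5, 21.9, 32.8 and 67.6 FPKM in injured muscles. The control of animal 02 was the lowest control, and even so no injured muscle reached it (log2 difference -2.36, SE 0.38, adjusted p = 2.13e-07 from limma). Amd1 and Amd2 together had a median of 255 FPKM in controls and 39.2 FPKM in injured muscles. Amd1 alone had a median of 7.51 FPKM in controls, so the sum is mostly Amd2. It cannot show how reads were divided between the rows. Smox, the spermine oxidase of the same pathway, stood at 91.9, 10.4, 127, 80.2 and 210 FPKM in controls and 10.96, 25.4, 12.9, 15.6 and 54.6 FPKM in injured muscles. Its groups overlapped through the control of animal 02 at 10.4 FPKM and were apart for the other muscles (-1.87, SE 0.40, adjusted p = 4.64e-05). Both enzymes were low in the same injured muscles, those of animals 01, 03 and 04. Mettl21c, which methylates lysines of proteins, stood at 60.4, 41.9, 46.3, 28.2 and 129 FPKM in controls and 28.7, 4.08, 6.00, 13.0 and 31.6 FPKM in injured muscles (-2.09, SE 0.46, adjusted p = 5.88e-05), with a small overlap through the control of animal 04. Myoz1 stood at 1445, 1065, 1471, 1200 and 1444 FPKM in controls and 672, 828, 309, 499 and 898 FPKM in injured muscles, which did not overlap (-1.13, SE 0.19, adjusted p = 2.77e-07). Phkg1, the catalytic subunit of phosphorylase kinase, stood at 132, 38.7, 154, 129 and 138 FPKM in controls and 51.7, 81.2, 22.3, 41.6 and 98.5 FPKM in injured muscles (-1.04, SE 0.30, adjusted p = 0.00154). The value of 38.7 FPKM is that of the control of animal 02, and without it all controls lay above all injured muscles. Myoz1 and Phkg1 were not called without the injured muscle of animal 03 (-0.90 and -0.73), and Phkg1 also not without any 1 of 5 other muscles.

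Injured muscles differed among themselves at 72 h. Against the controls of 72 h the median of the selected genes was -0.69, -0.02, -1.54, -0.89 and -0.16 in animals 01 to 05, and their macrophage sums were 2330, 4436, 9842, 6684 and 3686 FPKM. Animal 03 had the lowest median and the highest macrophage sum, while animal 02 had the highest median and a macrophage sum in the middle. Without the injured muscle of animal 03 the number of genes called lower was 14, and without the control of animal 02 it was 94. Among the genes called without that control but not with it were Klhl33 (-1.69), Phka1 (-1.39), Pygm (-1.26), Slc2a4 (-1.16), Eno3 (-1.10) and Pfkm (-1.06), and of the fast sarcomere Actn3 (-1.27) and Mylk2 (-1.26). The part of infiltrating cells in these values was not tested.

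At 7 d most calls rested on 1 injured muscle. Pygm (chromosome 19, 6384428 to 6398459) stood at 853, 1198, 1633 and 1332 FPKM in the controls of animals 02 to 05 and at 203, 728 and 789 FPKM in the injured muscles of animals 02 to 04, which lay below all controls (log2 difference -1.32, SE 0.39, adjusted p = 0.00625 from limma). Mylk2 stood at 161, 243, 296 and 296 FPKM and at 20.0, 137 and 135 FPKM, also without overlap (-1.75, SE 0.46, adjusted p = 0.00249). Casq1 stood at 599, 1042, 2321 and 1641 FPKM and at 184, 947 and 1039 FPKM, where the control of animal 02 lay below the injured muscles of animals 03 and 04 (-1.14, SE 0.41, adjusted p = 0.0292). For all of these the injured muscle of animal 02 was the lowest by far, and the control of the same mouse was the lowest control. Scn4b, an accessory subunit of the sodium channel, stood at 3.47 FPKM in that muscle and at 58.6 and 85.7 FPKM in the others, with controls of 40.0004, 119, 130 and 143 FPKM. Nos1, the neuronal nitric oxide synthase of the fiber membrane, stood at 0.0437 FPKM there and at 3.00 and 5.94 FPKM in the others, with controls of 1.72 to 9.30 FPKM (-2.08, adjusted p = 0.0266). The medians of the selected genes in the injured muscles of animals 02, 03 and 04 were -2.16, -0.54 and -0.28 against the controls of 7 d. Pygm, Mylk2, Casq1, Scn4b and Ckmt2 were not called without the muscle of animal 02, at -0.69, -0.83, -0.32, -0.45 and -0.14. With that muscle left out the median over the genes was -0.41 where that of all genes was 0.18, and 6 genes were called lower (0.135% of all genes were). These were Prima1 (-1.86), Cyp4f39 (-1.93), a cytochrome P450, the row 2310065F04Rik (-1.68), Ces1d (-1.53), Ppp1r1a (-1.49), an inhibitor of protein phosphatase, and Dusp26 (-1.27), a dual-specificity phosphatase. 2310065F04Rik, a processed transcript of chromosome 11 in GENCODE, stood at 84.4, 31.0, 49.8 and 36.7 FPKM in controls and 5.81, 12.5 and 17.0 FPKM in injured muscles, and Dusp26 at 77.6, 38.5, 31.6 and 62.7 FPKM and 4.52, 22.8 and 18.4 FPKM. For both every injured muscle lay below every control. Without the control of animal 02 the number was 97. With both legs of animal 02 left out 7 were called, and 0 when the muscles of 7 d were fitted alone. A median below that of all genes thus held without that muscle, and the number called did not. Mettl21c, lower at 72 h, stood at 17.1 to 43.7 FPKM in controls and 19.8 to 43.8 FPKM in injured muscles at 7 d and was not called.

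From 14 d few of the selected genes were called. Their share of all FPKM was 7.13% to 8.90% in injured muscles at 14 d, 7.04% to 9.20% at 21 d and 7.70% to 9.65% at 28 d. The share in the 48 h controls was 8.66% to 8.84%, but those muscles chose the genes and stood high for them. Against the controls of the same time point the median log2 difference was -0.17 at 14 d, -0.23 at 21 d and -0.15 at 28 d. Every injured muscle was below every control for 5 of the 194 at 14 d (0.217% of all genes), 60 at 21 d (8.39%) and 11 at 28 d (2.05%), though none was called at 21 or 28 d. Prima1 stayed lower at 14 d, with 0.895, 0.731, 1.17, 0.888 and 0.649 FPKM in controls and 0.145, 0.512, 0.415, 0.321 and 0.139 FPKM in injured muscles (-1.33, SE 0.35, adjusted p = 0.0292 from limma). No injured muscle reached a control, but the call was lost without any 1 of 7 of the 10 muscles. At 21 and 28 d its differences were -1.30 (adjusted p = 0.809) and -0.77 and were not called, although all 4 injured muscles lay below the 3 controls at 21 d. Amd2 stood at 182 to 347 FPKM in controls and 54.5 to 128 FPKM in injured muscles at 14 d (-1.33, SE 0.38, adjusted p = 0.042), a call lost without any 1 of 8 of the 10 muscles. Nrep was the other gene called lower at 14 d, but animals 03 and 05 had it listed at 0 in the injured leg, and it stood at 95.8 to 130 FPKM in the other 3, against 61.0 to 122 FPKM in controls, and its call was lost without any 1 of 6 muscles, at -3.66 to -2.05. Its direction was the opposite at 7 d, 21 d and 28 d, where every injured muscle lay above every control, though it was not called higher. Without 1 or other muscle the number called at 14 d was between 0 and 8. Pvalb was listed at 0 in the injured muscle of animal 03 at 21 d and stood at 7650 to 14689 FPKM in the others.

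**Figure D3:**
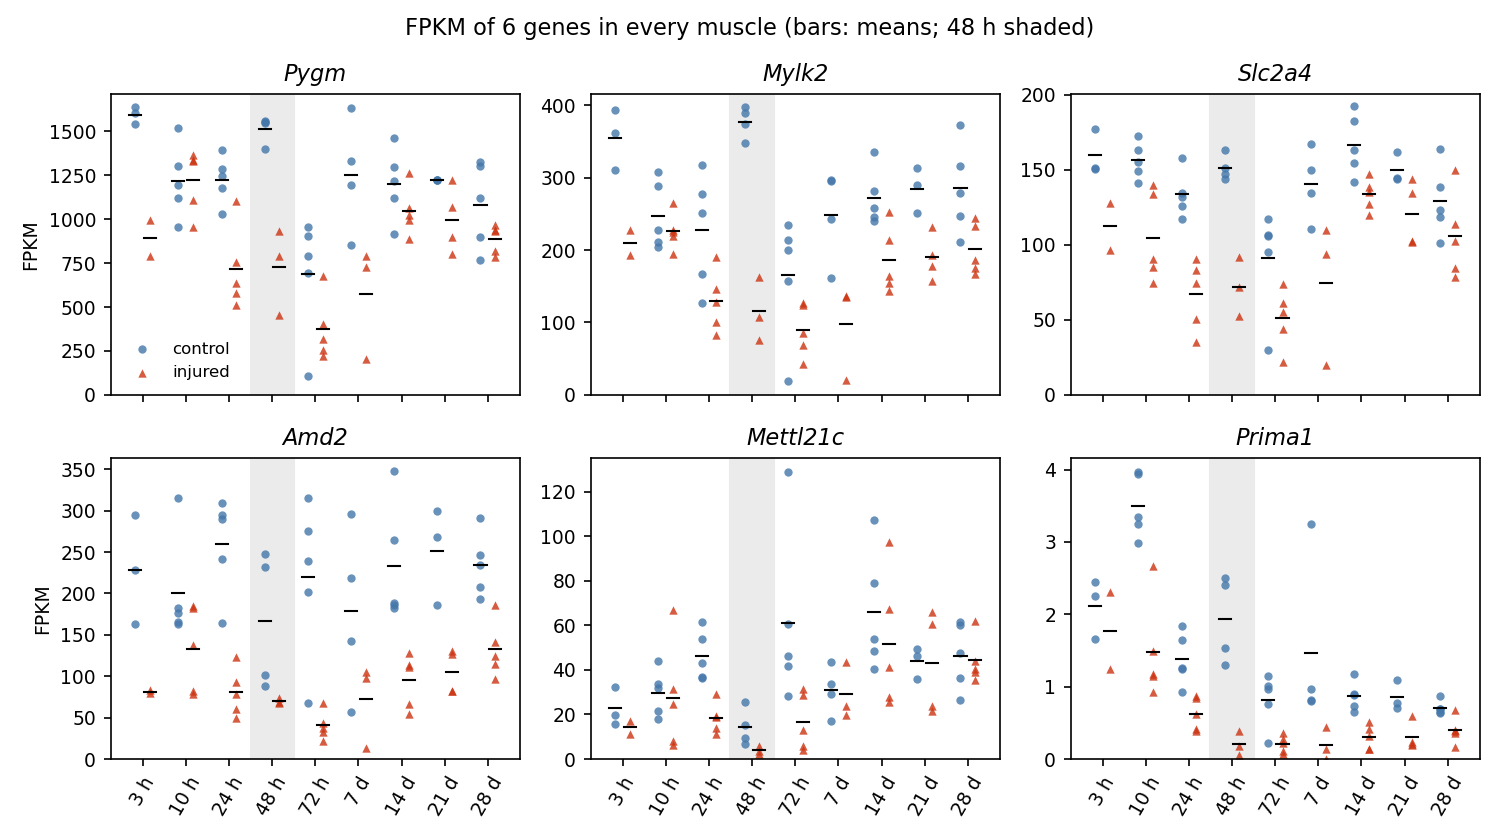
FPKM of 6 of the selected genes in every muscle (vertical axes, linear and starting at 0) by time after injury (horizontal axis, evenly spaced), controls as circles, injured muscles as triangles, bars at the means, 48 h shaded. Some injured muscles reach low levels of Pygm, Mylk2 and Slc2a4 from 24 h to 7 d. Injured and control muscles overlap at 24 h and 72 h for Pygm and Mylk2 and at 72 h for Slc2a4. Amd2 is lowest at 72 h, Mettl21c is near its controls at 7 d, and injured Prima1 lies below its controls also at 14 d.

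Whether the difference itself changed between time points was tested in the same fit. From 24 h to 72 h it rose for 2 of the 194 genes, where 28.4% of all genes rose. Cyp27a1, the sterol 27-hydroxylase, stood at 27.0 to 36.8 FPKM in controls and 7.47 to 17.3 FPKM in injured muscles at 24 h, and at 6.65 to 25.2 FPKM and 14.6 to 23.9 FPKM at 72 h. Its difference was -1.24 at 24 h and 0.04 at 72 h, a change of 1.28 (adjusted p = 0.00205 from limma). The control mean of Cyp27a1 was 31.5 FPKM at 24 h and 20.2 FPKM at 72 h, so its controls changed as well. The other was 9030617O03Rik, with a change of 1.02 (adjusted p = 0.0116). With both legs of animal 02 of 72 h left out the number that rose was 0. It was also 0 with upper-quartile scaling and with quantile normalization. From 72 h to 14 d the difference rose for 19 genes (0.416% of all genes). They include B230312C02Rik (1.90), Mettl21c (1.65), Ntf5 (1.55), Lrrc38 (1.46), Sh3bgr (1.32), Myoz1 (1.18) and Eno3 (1.01). Lrrc38 stood at 0.902 to 5.02 FPKM in injured muscles at 72 h and at 8.26 to 17.5 FPKM at 14 d, where its controls stood at 8.23 to 16.5 FPKM. Without the control of animal 02 at 72 h the number was 49.

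Followed by role, glycolysis and glycogen gave 8 of the 73 genes called at 7 d. Of its 11 selected genes 2 were lower at 24 h (Slc2a4, Pfkfb3), 1 at 72 h (Phkg1) and 8 at 7 d. These were 9 at 72 h without the control of animal 02 and 1 at 7 d without the injured muscle of animal 02. Of all 30 genes of the list tested, lower and higher calls numbered 2 and 1 (24 h), 3 and 1 (72 h), and 11 and 2 (7 d). Pfkfb3, which makes the activator of phosphofructokinase, was at 4.95 to 10.6 FPKM in controls and 5.97 to 37.2 FPKM in injured muscles at 10 h, a difference of 1.14 that was not called (adjusted p = 0.138). At 24 h it was lower than its controls by 1.37 (SE 0.54, adjusted p = 0.044). Its control mean was 7.11 FPKM at 10 h and 66.6 FPKM at 24 h, so these differences stand against unlike controls. Libraries A and B of animal 03 at 24 h had 41.7 and 165 FPKM in the control and 36.5 and 101 FPKM in the injured leg. Without the injured muscle of animal 05 none of the 11 was lower at 24 h.

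Among the contractile genes, of the 3 selected genes of the fast sarcomere none was lower at 24 h, Myoz1 at 72 h and Mylk2 at 7 d, and all 3 at 72 h without the control of animal 02. Of all 15 genes of that list 1 was lower at 24 h, 1 at 72 h and 5 at 7 d, and none was higher, while of the 13 genes of the slow sarcomere none was lower and 3, 7 and 6 were higher. Of the 5 scaffold genes Ky was lower at 24 and 72 h, and Ky, Synm and Synpo2 at 7 d (none without the injured muscle of animal 02). Actn3 was not called at any time, with 1243 to 2380 FPKM in controls and 711 to 1582 FPKM in injured muscles at 24 h (-0.64, SE 0.28, adjusted p = 0.0763). Of the 4 calcium genes Casq1 and Jph2, a junctophilin, were lower at 7 d alone, and of the 6 channel genes Aqp4 at 24 h and Scn4b at 7 d. Without the injured muscle of animal 02 no calcium or channel gene was lower at 7 d, and without the control of animal 02 Jph2 (-1.11), Aqp4 (-1.10), Kcna7 (-1.25) and Scn4b (-1.36) were lower at 72 h. Of the respiratory chain, which gave no selected gene, none of 48 was lower at 24 h, 72 h or 7 d, and 2 were higher at 72 h and at 7 d.

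Growth and polyamine genes had calls at 24 h, 72 h and 7 d. Of the 8 selected genes of growth, insulin and atrophy 4 were lower at 24 h (Asb10, Asb18, Klf15, Mettl21c), 3 at 72 h (Asb10, Asb14, Mettl21c) and 3 at 7 d (Asb10, Asb14, Asb15). Without the injured muscle of animal 05 the 4 at 24 h were 2, without the control of animal 02 the 3 at 72 h were 5, and without the injured muscle of animal 02 the 3 at 7 d were 0. Of all 35 genes of that list 7, 6 and 8 were lower and 2, 7 and 2 higher. Of the 5 genes of amino acid and polyamine metabolism Amd2 and Smox were lower at 24 h, 72 h and 7 d, and Ivd, a dehydrogenase of leucine breakdown, at 7 d, where none of the 5 was lower without the injured muscle of animal 02. Of the 11 other genes of fiber nuclei 2 were lower at 24 h, 2 at 72 h and 6 at 7 d, and 8 at 72 h without the control of animal 02 and 1 at 7 d without the injured muscle of animal 02. Lrrc38 was lower at all 3 times, but not at 7 d without the injured muscle of animal 02, where Dusp26 was the 1 left. Of the 14 macrophage genes tested 13, 14 and 14 were higher at these times and none lower.

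**Figure D4:**
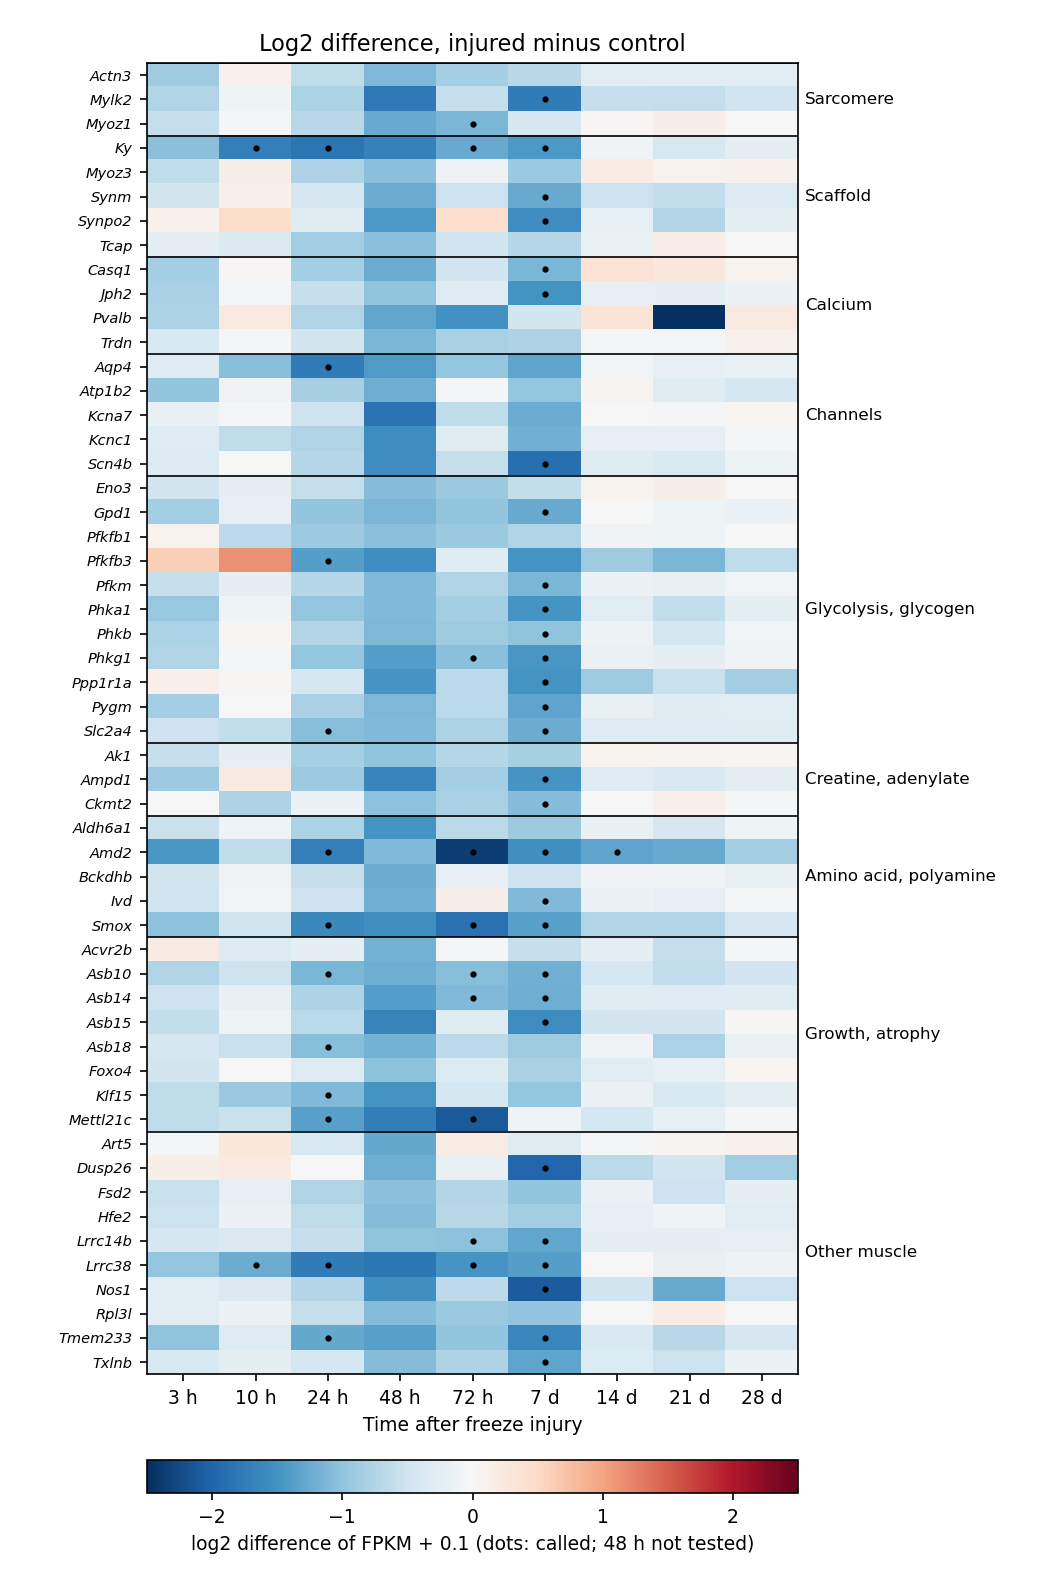
Log2 difference of FPKM + 0.1 between injured and control muscle (color, blue lower, red higher) for selected genes of the lists named (rows, by role) and time after injury (columns), with a dot where limma called the difference. The color scale ends at 2.5 in both directions, which Pvalb at 21 d passes because 1 injured muscle is listed at 0, and 48 h chose the genes and carries no test. Most dots lie at 24 h, 72 h and 7 d.

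The 92 genes called lower at no other time in the fit of 69 libraries include some with large differences at 48 h. Klhl33 stood at 0.503 to 26.5 FPKM in controls and 1.64 to 20.3 FPKM in injured muscles at 72 h (-0.65, SE 0.65, adjusted p = 0.372), and its lowest control was that of animal 02, without which it was called. Dkk3, a secreted protein of the Dickkopf family, had 48 h controls that differed among themselves, at 8.06, 7.66, 1.30 and 1.21 FPKM, against 0.778, 0.958 and 0.292 FPKM in injured muscles. At 10 h it stood at 0.762 to 6.83 FPKM in controls and 1.49 to 7.99 FPKM in injured muscles and was not called (1.61, adjusted p = 0.106). Idh2, a mitochondrial isocitrate dehydrogenase, had differences of -0.18 at 24 h, 0.49 at 72 h and -0.15 at 7 d, and Vgll2, a cofactor of TEAD factors in muscle, of 0.03, -0.12 and -0.24. The 0.49 of Idh2 at 72 h includes the control of animal 02. Without that control the median of Idh2 and Pdpr, the other selected gene of pyruvate and citric acid cycle metabolism, was -0.54 at 72 h (0.13 with it). Pdpr was then at -1.20. Vgll2 was at -0.44 at 72 h without the control of animal 02 and at 0.09 at 7 d without the injured muscle of animal 02. Neither Idh2 nor Vgll2 was called lower in these fits.

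Isoform values were matched for 193 of the genes, those with 1 locus, and 32 of them had more than 1 isoform. In 31 of these the same isoform had the highest level in all 18 groups, injured and control, the exception being Tnfrsf19. The isoforms of a gene summed to within 10% of the gene value in 182 of the 193, but to 0.0301 of it for Eno3, 0.0186 for Pfkfb3 and 0.109 for Smox, so the gene values of these rest on more than the isoforms listed. Pfkm had its leading isoform at chromosome 15, 97942490 to 97962878 of mm9. Kcnc1, a potassium channel of fast fibers and nerve, had 75.4% to 80.6% of its level in its leading isoform in the 48 h controls and 83.8% to 90.6% in the injured muscles. It is 1 of the 32 genes, shown at the time that chose them, and its shares were not tested.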

How the data were processed

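RNA sequencing of polyadenylated RNA was made from injured and contralateral TA muscle. Per the labels and the study's methods, the authors made strand-specific paired-end libraries, aligned reads to mm9 with TopHat and derived the FPKM of each gene and isoform with Cufflinks and Cuffdiff. Any scaling of libraries is not given in the sources used here. The deposited FPKM cover 23811 genes and 26848 isoforms in 80 libraries (39 injured, 41 control) of 92 in the labels. A further 12 were not analysed here, 1 control of unknown time and the incomplete injured library of animal 05 at 7 d were not used, and for animal 3 of 24 h the libraries marked A and B were averaged per leg, although they differed (Pearson r over the selected genes 0.875 and 0.941). That libraries of a group come from different mice follows from the animal numbers.

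The selected genes and the gene lists were chosen with earlier results of these data known. limma 3.58.1 in R 4.3.3 (lmFit, eBayes with a trend) was run on log2(FPKM + 0.1) for the 12009 genes whose mean reached 1 FPKM in any of 16 groups, two-sided, with Benjamini-Hochberg adjustment over all of them and 53 residual degrees of freedom. All adjusted p-values are from limma, and SE is that of the fit. The scripts were tested on simulated data. Named are genes of a list, the 15 with the largest 48 h difference, the 15 with the highest 48 h control mean, up to 5 falls and 5 rises per time among called genes without overlap, and genes beside each limit. Others were named after their values were seen, and 1 selected gene is not reported here. The animal number marks both legs of 1 mouse, which pairs them by design. Deviations from the group means were correlated over all 12009 genes tested, not the selected ones alone. The median correlation was 0.16 in 33 pairs of the same mouse (from -0.28 to 0.67) and -0.06 in 122 pairs of different mice. No pair of libraries held identical values. Alternatives were pseudocounts, filters, scalings, fits by time point, library weights, the animal as a block and each muscle left out. Gene coordinates are those of the files (mm9), and promoter windows are those of RefSeq on GRCm38.p6. Python 3.11.15, NumPy 2.4.6, pandas 2.3.3 and matplotlib 3.10.9 were used.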

Additional observations from a re-analysis of the deposited data

Results flagged for a closer look

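The control of animal 02 at 72 h lay far from the other 4 controls, with a median of -1.43 for the selected genes against the mean of the controls of its time point, and its level of Phkg1 was 38.7 FPKM where the other 4 had 129 to 154 FPKM. Prima1 stood at 3.25 FPKM in the control of animal 04 at 7 d, above the other 3 controls at 0.802 to 0.974 FPKM. These were 3 of 51 sets of values examined for a single distant sample, each the median or the level of 1 gene in a group of muscles. Chance alone marks about 1 in 20 of separate sets. These sets share muscles, and the flags of the median and of Phkg1 are the same control, so that rate does not apply directly. The difference between injured and control muscle was higher at 72 h than at 24 h for 2 of the selected genes and higher at 14 d than at 72 h for 19, both by limma's test of the change itself.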

How the results depend on the processing

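Counts of genes called lower are given in the order 10 h, 24 h, 72 h and 7 d, where the reported counts were 7, 35, 39 and 73, then 14 d (reported 3), the genes higher at 10 h (reported 1), and the genes whose difference rose from 24 h to 72 h (reported 2) and from 72 h to 14 d (reported 19). Upper-quartile scaling gave 20, 72, 165 and 116, then 6, 0, 0 and 104, and quantile normalization 26, 80, 175 and 129, then 4, 0, 0 and 110. The medians of the selected genes stayed below those of all genes at all 8 times under both. The selection itself gave 891 and 1211 genes under these scalings. A pseudocount of 1 gave 5, 23, 23 and 56, then 1, 1, 1 and 12. With no fold threshold the counts were 17, 80, 99 and 104, then 4, 1, 2 and 29. A group mean of at least 5 FPKM left 0 genes higher at 10 h and 1 lower at 14 d, and with all genes tested 0 were higher at 10 h. Each time point fitted alone gave 12 lower at 3 h, 3 higher at 10 h and 0 lower at 7 d and 14 d. With the controls of all times as comparator 5 were lower at 3 h, then 13, 55, 91 and 70, with 3 at 21 d, 1 at 28 d, 2 higher at 10 h and 1 and 79 for the changes, and Prima1 at 10 h was at 0.19. Library weights, whose estimation stopped before it converged, gave 12 at 3 h, then 19, 30, 61 and 27, with 13 at 14 d, 8 at 21 d, 1 at 28 d, 3, 1 and 1 higher at 10 h, 7 d and 21 d, and 1 from 24 h to 72 h. With the incomplete library of 7 d kept the counts were 2, 6, 17 and 183, then 0, 0, 0 and 1. The animal as a block (a replicate block) gave 8, 36, 40 and 62, then 3 at 14 d and 3 and 22 for the changes, and moved no count by over 1.5 times and changed the call of none of the 22 gene and time pairs named below.

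Leaving out each muscle in turn gave 112 to 286 selected genes, 6 to 10 lower and 0 to 2 higher at 10 h, 20 to 43 lower at 24 h, 14 to 94 lower and 0 to 1 higher at 72 h, 6 to 118 at 7 d, 0 to 8 at 14 d, 0 to 4 for the change to 72 h and 10 to 49 for that to 14 d. In alternatives chosen after seeing the data, both legs of animal 02 left out gave 7 at 7 d, where Ckmt2 was at 0.013, and 128 at 72 h, with 0 and 72 for the changes, and both legs of animal 03 left out gave 46 at 24 h. With library A alone for animal 03 of 24 h the count was 32, with 1 gene rising from 24 h to 72 h, and with B alone 31. Of 484 values of 22 gene and time pairs under these alternatives, 389 kept direction and call, and 5 pairs did so throughout (Lrrc38 and Aqp4 at 24 h, Amd2, Mettl21c and Smox at 72 h). The causes of these changes were not tested. Depth is unknown, groups hold 2 to 5 muscles, and levels near 0 FPKM are set largely by the pseudocount.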
